A study of Homo sapiens with 6 samples.

Results

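FRMD8 and the genes of the iRhom and ADAM17 shedding machinery were followed with 5 ligands of the epidermal growth factor receptor. They were 9 genes in all: FRMD8, RHBDF1, RHBDF2, ADAM17, TGFA, AREG, EREG, HBEGF and BTC. They were taken from the 58825 genes of the expression tables by gene name. FRMD8 was chosen by its fold change and adjusted p in the same contrast that is described here, and the other 8 genes for their known link to it. The members' values are therefore a description, and nothing rests on the finding that FRMD8 differed. All 9 genes were among the 20295 genes that passed the filter on low counts. The RNA came from NCI-H460, a human lung cancer cell line infected with lentivirus. The control group, NC-shRNA (3 libraries), carried a control short hairpin RNA. The sample titles call it GFPkd, after GFP, a jellyfish protein. The study does not say whether the lentiviral vector carried GFP. The study prints a control hairpin sequence without naming its target. The other group, PRMT5-shRNA (3 libraries), carried a hairpin against PRMT5, the main enzyme of symmetric arginine dimethylation. The 3 NC-shRNA libraries are called controls below. Both groups were stably infected cells grown in RPMI-1640, and which of the study's PRMT5 hairpins the sequenced cells carried is not given in the labels.

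Many ligands of the epidermal growth factor receptor (EGFR) are made as membrane-bound precursors, and the metalloprotease ADAM17 cuts them free at the cell surface. ADAM17 leaves the endoplasmic reticulum only with an iRhom, a rhomboid-like protein without protease activity, encoded by RHBDF1 and RHBDF2. The FERM-domain protein FRMD8, also called iTAP, binds the iRhom tail and keeps the iRhom and ADAM17 complex from being degraded in lysosomes. These steps act on proteins, whereas the values below are transcript levels.

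The hairpin target was lower in the PRMT5-shRNA libraries. The controls held 9604, 8812 and 7966 estimated counts of PRMT5, and the libraries of the PRMT5 hairpin 2502, 3188 and 2203, with no overlap. It fell by 1.62 on the log2 scale (SE 0.0943, edgeR adjusted p = 0.0063) and kept 32.6% of its control level. The exact two-sided permutation test gave p = 0.10, the smallest that 3 against 3 libraries allow. Total counts were 53531257 to 70518401 per library. The keratins KRT7, KRT8, KRT18 and KRT19 carried most of the summed FPKM of the 6 epithelial markers, which was 343.7 to 361.3 in the controls and 317.9 to 328.5 under the PRMT5 hairpin. FPKM is a fragment number divided by transcript length and library size. The other 2 epithelial markers were low. EPCAM was at 0.50, 0.48 and 0.52 FPKM against 0.47, 0.32 and 0.45. CDH1 was at 0.10, 0.16 and 0.15 FPKM against 0.10, 0.19 and 0.30. Of the 6 markers 1 was higher and 5 lower, where 51.2% of all tested genes were higher. KRT8 and EPCAM were lower without overlap, as were 10.7% of all tested genes. The labels call the line an adenocarcinoma, but NKX2-1, NAPSA, SFTPB and SFTPC summed to at most 0.13 FPKM in the controls and 0.23 under the PRMT5 hairpin. Of the blood markers, PTPRC and CD3E were listed at 0 in the controls. The 4 fibroblast markers summed to 9.90 to 10.9 FPKM against 9.53 to 11.7, mostly from DCN. Among them the collagen gene COL3A1 was at 0.89, 0.94 and 1.09 FPKM against 1.98, 1.61 and 1.99 and did not overlap (1.83-fold, edgeR adjusted p = 0.11). The 4 endothelial markers summed to 1.36 to 1.48 FPKM against 1.80 to 2.23, with TIE1 and EMCN at or near 0. The adhesion molecule gene PECAM1 had 30, 5 and 8 counts against 104, 100 and 109 (7.997-fold, adjusted p = 0.188), and the cadherin gene CDH5 was at 1.31, 1.48 and 1.35 FPKM against 1.68, 1.63 and 2.02 (1.24-fold, adjusted p = 0.376), both without overlap. DESeq2 called COL3A1 and PECAM1, beside 2.33% of the genes to which it gave an adjusted p. Of all tested genes, 11% were higher without overlap. The part of these markers in the values below was not tested.

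FRMD8 (ENSG00000126391) lies on the plus strand of chromosome 11 of GRCh38, from 65386599 to 65413525, with 9 annotated transcripts in GENCODE release 29. AREG (ENSG00000109321, chromosome 4, 74445134 to 74455009) and EREG (ENSG00000124882, chromosome 4, 74365143 to 74388751) are neighbouring ligand genes on the plus strand, 56.4 kb apart with no tested gene between them. BTC (ENSG00000174808, chromosome 4, 74744759 to 74794686) lies 290 kb beyond AREG on the minus strand. The start regions of FRMD8, of AREG, and of EREG, which had the lowest level of the 9, are shown because FRMD8 set the choice of genes and because the last 2 are adjacent genes with very different transcript levels. They come from the RefSeq promoter table (GRCh38.p14, 250 bases before to 50 after each start), at chr11:65386387-65386686, chr4:74444886-74445185 and chr4:74364895-74365194, all on the plus strand. Capitals mark the cyclic AMP response element (CRE) TGACGTCA, its half-site TGACG, the CCAAT motif (ATTGG on the other strand) and the TATA motif TATAAA.
FRMD8: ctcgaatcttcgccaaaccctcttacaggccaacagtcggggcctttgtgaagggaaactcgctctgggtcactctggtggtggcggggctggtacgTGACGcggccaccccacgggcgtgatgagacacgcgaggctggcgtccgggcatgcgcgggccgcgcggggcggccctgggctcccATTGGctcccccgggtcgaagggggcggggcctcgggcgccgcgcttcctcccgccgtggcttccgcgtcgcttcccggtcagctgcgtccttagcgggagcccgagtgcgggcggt
AREG: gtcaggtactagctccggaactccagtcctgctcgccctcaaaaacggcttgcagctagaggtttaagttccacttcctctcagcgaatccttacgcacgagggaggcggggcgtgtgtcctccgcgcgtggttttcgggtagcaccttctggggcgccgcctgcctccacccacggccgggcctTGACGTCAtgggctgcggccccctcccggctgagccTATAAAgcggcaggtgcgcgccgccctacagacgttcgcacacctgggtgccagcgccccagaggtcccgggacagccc
EREG: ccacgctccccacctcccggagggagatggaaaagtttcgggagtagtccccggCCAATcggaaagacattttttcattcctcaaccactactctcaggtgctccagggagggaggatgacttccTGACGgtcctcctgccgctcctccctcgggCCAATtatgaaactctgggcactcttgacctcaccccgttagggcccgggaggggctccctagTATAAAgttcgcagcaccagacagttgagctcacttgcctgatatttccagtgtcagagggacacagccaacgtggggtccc

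All 9 genes matched this table, RHBDF2 and TGFA with 2 windows each. AREG was the only member with a full CRE, which started 65 bases before the start and contains both half-sites, and 1.84% of all 34943 windows held one. AREG also had TATAAA from -29, and EREG from -32; 11.6% of all windows held it on either strand. FRMD8 had no TATAAA, 1 TGACG (24.5% of windows), 1 ATTGG (34.6% of windows for CCAAT on either strand) and 3 copies of the GC box GGGCGG (44.9% of windows). RHBDF1 had the AP-1 motif TGAGTCA from -64, and 4.96% of windows held it or its reverse, TGACTCA. The GC content was 72.0% for FRMD8, 66.3% for AREG, 57.7% for EREG and 79.7% for RHBDF1, the lowest and highest of the 9 being EREG and RHBDF1. These matches describe letters in the windows only.

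FRMD8, the iRhom-binding adaptor, passed the test over all genes, and it fell. Its level was 5.88, 5.86 and 7.23 FPKM in the controls and 2.90, 2.57 and 2.80 after PRMT5 knockdown. The groups did not overlap, and NC-shRNA replicate 3 was the highest of the 6. The estimated counts behind these levels were 1963, 1972 and 2136 against 739, 848 and 750. On the scale of counts divided by the scaled library total (CPM), FRMD8 went from 30.7 ± 3.22 to 12.9 ± 0.718 (SD, n = 3 each). It fell by 1.25 on the log2 scale (SE 0.108, 95% interval -1.51 to -0.99), to 42.0% of the control level, with an adjusted p of 0.0254 over all genes in the edgeR quasi-likelihood test. FRMD8 ranked at 7 among all tested genes by p. The call was lost without any of 5 libraries, with adjusted p of 0.0662 and 0.0682 without NC-shRNA replicates 1 and 2 and of 0.0785, 0.0801 and 0.0857 without PRMT5-shRNA replicates 1, 2 and 3, while it stayed at 0.0359 without NC-shRNA replicate 3. It was also lost with limma on log2(FPKM + 1) without a filter on low values (adjusted p = 0.10). The log2 fold change without any 1 library stayed between -1.30 and -1.16. In bulk RNA, fewer cells that express a gene and less RNA per cell cannot be told apart.

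Over all genes, 14 of 20295 (0.069%) had an adjusted p under 0.05, against 1 of the 9 members, the gene that set the choice. An unadjusted p under 0.05 with a fold change over 1.5 was met by 262 lower genes (1.29%) and 513 higher genes (2.53%), and among the members by FRMD8. The unadjusted p alone was under 0.05 for 2605 genes (12.8%), and among the members for FRMD8 and AREG. The CPM ranges of the groups did not overlap for 2165 genes in the lower direction (10.7%) and 2238 in the higher direction (11%). Among the members this held for FRMD8 in the lower direction and for AREG and BTC in the higher direction. Leaving FRMD8 aside, 7 of the other 8 members had a fold change above 0, as did 51.2% of all tested genes, and HBEGF was below. TGFA counts among the 7 at 0.01, and its direction turned in 3 of the 6 fits that left out a library. The median log2 fold change of the 9 was 0.138 beside 0.0075 for all tested genes.

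**Figure D1:**
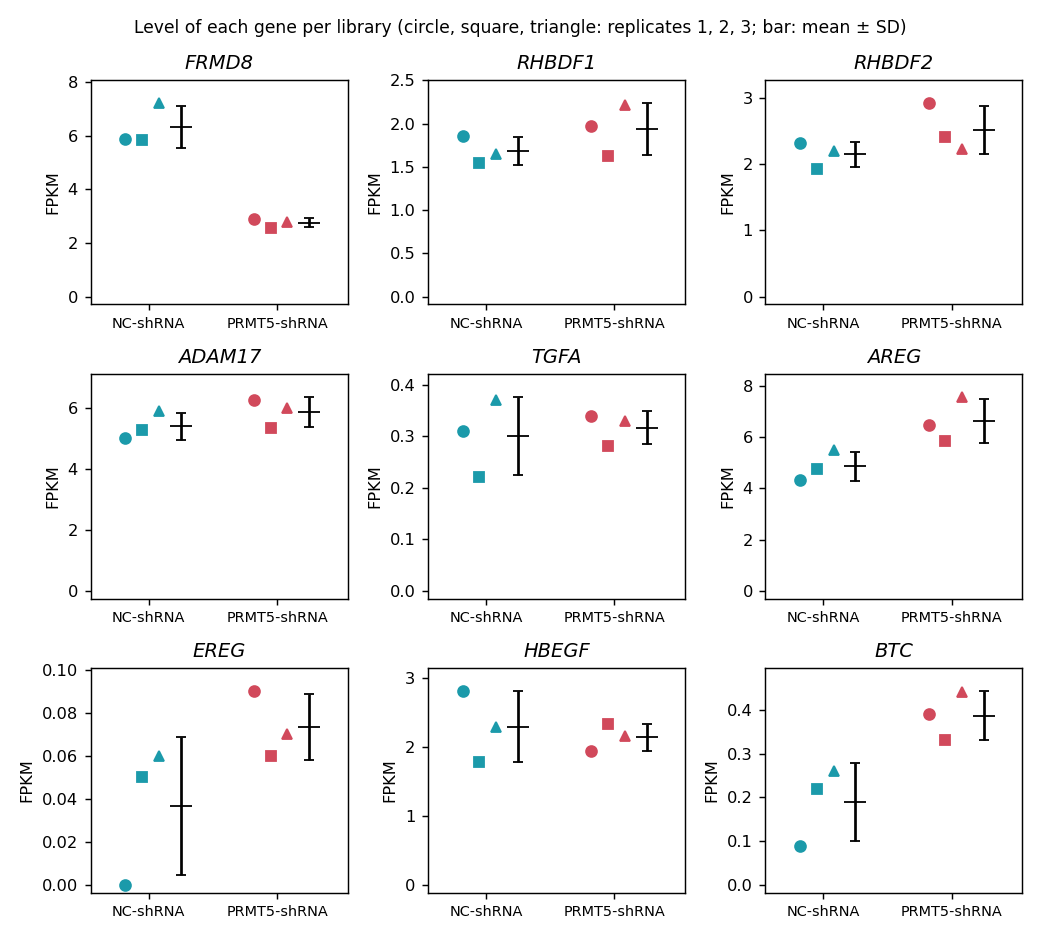
FPKM of the 9 genes (vertical axes, each on its own scale) in the NC-shRNA and PRMT5-shRNA libraries. Symbols are replicates 1, 2 and 3 and bars are mean ± SD of 3 libraries; FRMD8 separates downwards, AREG and BTC separate upwards, and the groups of the other genes overlap.

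The iRhom transcripts did not pass the test. RHBDF1 (ENSG00000007384, chromosome 16, 58059 to 76355, minus strand) encodes iRhom1, the more widely expressed of the pair. It stood at 1.86, 1.54 and 1.65 FPKM in the controls and at 1.97, 1.62 and 2.22 under the PRMT5 hairpin. The ranges overlapped, with a log2 fold change of 0.14 (SE 0.153, adjusted p = 0.75) and a 95% interval of 0.856- to 1.42-fold. RHBDF2 (ENSG00000129667, chromosome 17, 76470891 to 76501790, minus strand) encodes iRhom2, known best from immune cells. Its levels were 2.31, 1.93 and 2.19 FPKM in the controls and 2.92, 2.40 and 2.23 after PRMT5 knockdown. Those ranges also overlapped, with a log2 fold change of 0.17 (SE 0.137, adjusted p = 0.654) and an interval of 0.897- to 1.41-fold. A fall of the size seen for FRMD8 lay outside both intervals. RHBDF2 exceeded RHBDF1 in FPKM by 1.24- to 1.48-fold in 5 of the 6 libraries, and the pair were level in PRMT5-shRNA replicate 3.

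ADAM17 had the smallest SE of the 9 genes, and it did not pass the test. ADAM17 (ENSG00000151694, chromosome 2, 9488486 to 9556732, minus strand) is the sheddase of the complex. It was at 5.01, 5.28 and 5.88 FPKM in the controls and 6.27, 5.33 and 5.99 under the PRMT5 hairpin, so the groups overlapped. Its log2 fold change was 0.06 (SE 0.0823, adjusted p = 0.796) with a 95% interval of 0.912- to 1.20-fold. IAH1 overlaps ADAM17 on the other strand and had 17976 counts over the 6 libraries, and whether the counting used strand is not given in the sources used here.

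The ratio of FRMD8 to its partners was lower in each PRMT5-shRNA library than in each control. FRMD8 over ADAM17, in FPKM, was 1.17, 1.11 and 1.23 in the controls and 0.463, 0.482 and 0.467 after PRMT5 knockdown. FRMD8 over the sum of both iRhoms was 1.41, 1.69 and 1.88 against 0.593, 0.639 and 0.629. Both ratios carry the difference in FRMD8 that set the choice. In NC-shRNA cells FRMD8 had the highest mean level of the 9 genes (6.32 ± 0.785 FPKM), followed by ADAM17 (5.39 ± 0.445) and AREG (4.86 ± 0.576), each overlapping its neighbour in this order. HBEGF (2.29 ± 0.510) and RHBDF2 (2.14 ± 0.194) overlapped each other and lay below these. RHBDF1 (1.68 ± 0.163) came next, then TGFA (0.300 ± 0.0755) with BTC (0.190 ± 0.0889), and EREG was last (0.0367 ± 0.0322). In PRMT5-shRNA cells AREG (6.63 ± 0.862) and ADAM17 (5.86 ± 0.483) headed the order, and FRMD8 (2.76 ± 0.169) overlapped RHBDF2 (2.52 ± 0.360), which overlapped HBEGF (2.14 ± 0.195), which in turn overlapped RHBDF1 (1.94 ± 0.301). BTC (0.387 ± 0.0551) and TGFA (0.317 ± 0.0322) had changed places in the order of means with overlapping ranges, and EREG (0.0733 ± 0.0153) was again lowest. The errors are SDs over 3 libraries.

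**Figure D2:**
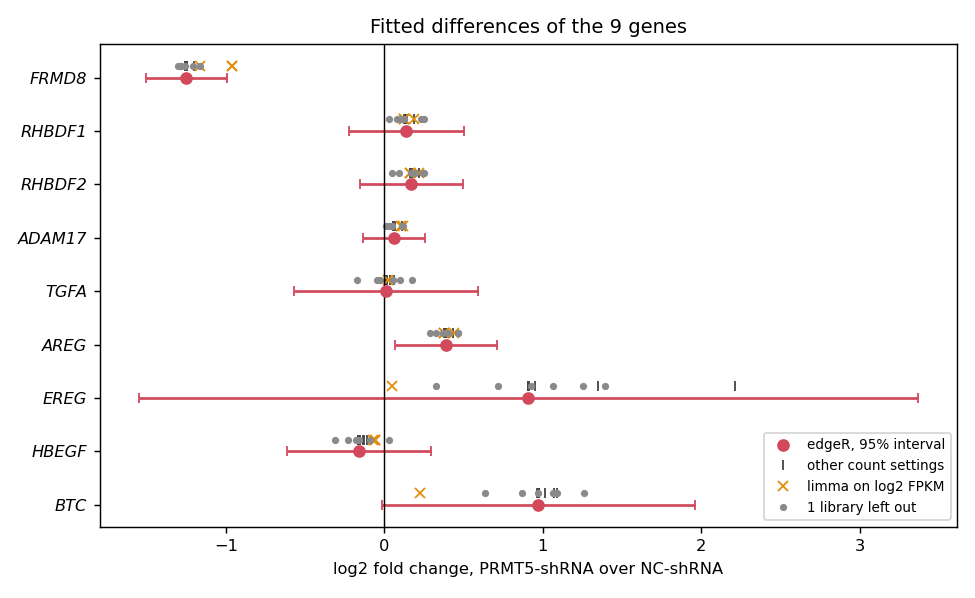
Log2 fold change of each gene, PRMT5-shRNA over NC-shRNA (horizontal axis), from edgeR with its 95% interval (circles), beside the values under other count settings, limma on log2 FPKM and the fits with 1 library left out. FRMD8 lies between -1.30 and -0.96 under all settings, the intervals of RHBDF1, RHBDF2, ADAM17, TGFA, HBEGF, EREG and BTC include 0, and that of EREG is the widest.

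AREG was the main ligand transcript among the 5 in every library. AREG encodes amphiregulin, a low-affinity EGFR ligand shed by ADAM17. Its level was 4.34, 4.77 and 5.48 FPKM in the controls and 6.46, 5.86 and 7.56 under the PRMT5 hairpin. All 3 PRMT5-shRNA libraries were above all 3 controls, as in 11% of tested genes. AREG had a log2 fold change of 0.39 (SE 0.136, 95% interval 0.06 to 0.71), or 30.8% above control, which did not pass the edgeR test over all genes (adjusted p = 0.321).

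BTC, which encodes betacellulin, a ligand of EGFR and ERBB4, had few counts. Its counts were 19, 48 and 51 in the controls and 64, 71 and 77 under the PRMT5 hairpin. The groups did not overlap, and NC-shRNA replicate 1 was the lowest, without which the log2 fold change was 0.63. With all libraries BTC had a log2 fold change of 0.97 (SE 0.417, 95% interval -0.02 to 1.96) and an adjusted p of 0.395, and the fold change ranged from 0.22 to 1.26 over 15 alternatives. The low end came from limma on log2(FPKM + 1), a scale that shrinks the difference of a gene below 1 FPKM.

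HBEGF (ENSG00000113070, chromosome 5, 140332843 to 140346631, minus strand) encodes the heparin-binding ligand of EGFR and ERBB4. Its levels were 2.80, 1.78 and 2.29 FPKM in the controls and 1.94, 2.33 and 2.15 after PRMT5 knockdown, where the spread within the controls covered all 3 knockdown values. HBEGF had a log2 fold change of -0.16 (SE 0.192, adjusted p = 0.772, 95% interval 0.654- to 1.23-fold), and the value was 0.03 without NC-shRNA replicate 1.

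TGFA (ENSG00000163235, chromosome 2, 70447280 to 70554193, minus strand), which encodes transforming growth factor alpha, was at 0.31, 0.22 and 0.37 FPKM in the controls and 0.34, 0.28 and 0.33 under the PRMT5 hairpin. The groups overlapped. TGFA had a log2 fold change of 0.01 (SE 0.244, adjusted p = 0.99) and its 95% interval ran from 0.675- to 1.51-fold. Without NC-shRNA replicate 2 it was -0.17.

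EREG, which encodes epiregulin, was close to the limit of detection. Its counts were 0, 26 and 26 in the controls and 34, 27 and 28 under the PRMT5 hairpin, so only NC-shRNA replicate 1 stood apart. The log2 fold change of 0.91 (SE 1.04, adjusted p = 0.759) had an interval of -1.55 to 3.37 and was 0.33 without NC-shRNA replicate 1, and no difference was detectable at this depth.

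The sum of these 5 ligands was higher in each PRMT5-shRNA library than in each control, but not once EGF and EPGN were added. The sum of the 5 was 7.54, 7.04 and 8.46 FPKM in the controls and 9.22, 8.86 and 10.55 after PRMT5 knockdown. AREG made up 57.6%, 67.8% and 64.8% of the sum in the controls and 70.1%, 66.1% and 71.7% after PRMT5 knockdown, with overlapping ranges. HBEGF made up 37.1%, 25.3% and 27.1% against 21.0%, 26.3% and 20.4%, and these shares overlapped too. BTC made up 1.19% to 3.13% against 3.72% to 4.23%. With EGF and EPGN added, the 7 ligands summed to 17.85, 19.05 and 20.93 FPKM against 21.06, 20.16 and 22.78, with overlapping ranges. FPKM values were 1.04 times higher in PRMT5-shRNA cells for the median of 14546 genes with a mean FPKM of at least 0.5, while the median log2 ratio in CPM was -0.01. For the sum of the 5, the exact two-sided permutation test gave p = 0.10, the smallest that 3 against 3 libraries allow. No conclusion is drawn from it, because the members were chosen with these values known.

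**Figure D3:**
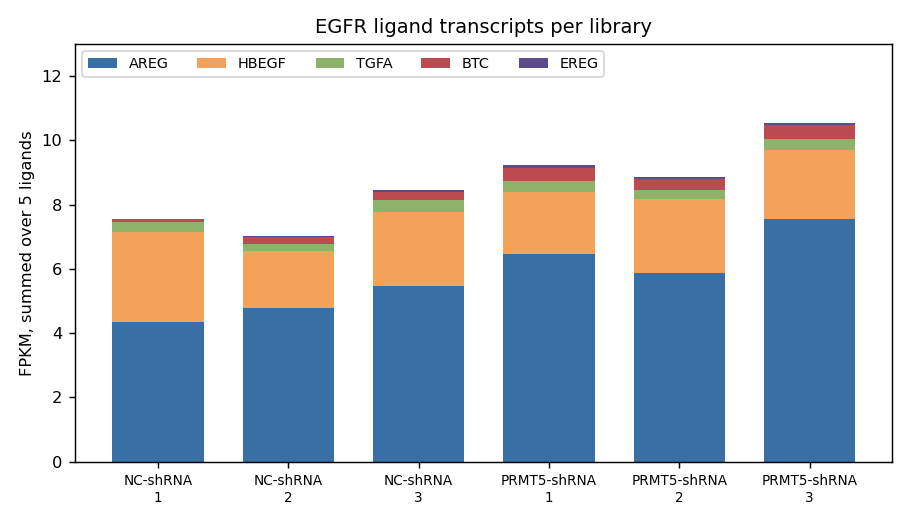
FPKM of AREG, HBEGF, TGFA, BTC and EREG stacked for each of the 6 libraries (vertical axis from 0). AREG is the largest block in all 6, and the 3 PRMT5-shRNA stacks (8.86 to 10.55) are taller than the 3 NC-shRNA stacks (7.04 to 8.46). The ligands EGF and EPGN are not stacked here.

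Other genes of the pathway were taken as 7 lists by function, 74 genes of which 68 were tested. Of these 68, 40 had a fold change above 0 and 28 below, where 51.2% of all tested genes were above 0. The median log2 fold change was 0.0645 against 0.0075 for all genes. At an edgeR adjusted p under 0.05, 1 list gene fell and 0 rose, and 22 had an unadjusted p under 0.05 (13 higher, 9 lower), beside 0.069% of all tested genes at the adjusted and 12.8% at the unadjusted p. DESeq2 called 2 of the list genes and 401 of the 17235 genes to which it gave an adjusted p (2.33%). IL1R2, the decoy receptor of interleukin 1 and an ADAM17 substrate, was at 2.53, 2.38 and 2.46 FPKM in the controls and 0.08, 0.15 and 0.14 under the PRMT5 hairpin. It fell by 4.33 on the log2 scale (SE 0.237, adjusted p = 0.0063) to 4.99% of control, with no overlap. IL1R2 was part of these lists with its difference in these libraries already known. Among the other 19 tested substrates, 9 were higher and 10 lower, 0 passed the edgeR or DESeq2 test and 3 had an unadjusted p under 0.05. APP, the amyloid precursor and the most abundant of them, was at 86.0 FPKM against 88.5 (log2 fold change -0.02, adjusted p = 0.916).

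Of the 4 ERBB receptors, 3 were higher and 1 lower, and 0 passed the edgeR test with or without adjustment or the DESeq2 test. EGFR, the receptor that all 5 ligands bind, had the highest level of the 4, 22.1 ± 3.25 FPKM in control and 24.9 ± 0.883 in PRMT5-shRNA cells (log2 fold change 0.11, adjusted p = 0.665). The 5 tested genes among the 6 other EGFR family ligands were split 3 to 2, with NRG3 below the filter; 0 passed the edgeR or DESeq2 test and 1 had an unadjusted p under 0.05. EPGN, which encodes epigen, was the most abundant of them and stood above AREG, at 10.8 ± 1.03 against 10.7 ± 0.485 FPKM (log2 fold change -0.07, adjusted p = 0.797). Counting EGF and EPGN with the 5 ligands, EPGN made up 53.9%, 58.9% and 55.2% of the 7 in the controls and 52.2%, 50.4% and 48.4% after PRMT5 knockdown. In the same sum AREG made up 24.3%, 25% and 26.2% against 30.7%, 29.1% and 33.2%. For the counts of both lists, 51.2% of all tested genes were higher and 12.8% had an unadjusted p under 0.05.

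Of the 5 genes for ADAM17 maturation, its inhibition and the related sheddase ADAM10, 3 were higher and 2 lower, 0 passed the edgeR or DESeq2 test and 1, FURIN, had an unadjusted p under 0.05. FURIN, the proprotein convertase that removes the ADAM17 prodomain, was the most abundant, at 17.73, 18.37 and 17.23 FPKM in the controls and 23.89, 21.51 and 22.50 under the PRMT5 hairpin. Its groups did not overlap, and the log2 fold change of 0.29 (SE 0.0654) did not pass over all genes (adjusted p = 0.203). ADAM10, which sheds BTC and can stand in for ADAM17, was at 0.844, 0.896 and 0.878 of the ADAM17 level in the controls and at 0.864, 0.734 and 0.898 after PRMT5 knockdown. The 10 rhomboid family genes were split 4 higher and 6 lower, with a median of -0.07; 0 passed the edgeR or DESeq2 test and 3 had an unadjusted p under 0.05. DERL3, a derlin of endoplasmic reticulum degradation, met the unadjusted rule, from 0.647 to 0.437 FPKM with overlapping ranges (log2 fold change -0.61, adjusted p = 0.377). DERL1, with the highest mean over the 6 libraries, was at 9.70 FPKM in control and 10.25 in PRMT5-shRNA cells (adjusted p = 0.955). Of the other FRMD genes, 5 of 7 were tested, 4 higher and 1 lower, 0 passed the edgeR or DESeq2 test and 2 had an unadjusted p under 0.05. The most abundant, FRMD3, was at 3.56 against 3.34 FPKM (log2 fold change -0.15, adjusted p = 0.525). For the counts of these lists, 51.2% of all tested genes were higher and 12.8% had an unadjusted p under 0.05.

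The 19 feedback inhibitors and targets of EGFR and ERK signalling had the highest number of separated genes of the 7 lists. In 9 of the 19 all PRMT5-shRNA libraries were above the controls and in 3 all were below, beside 11% and 10.7% of all tested genes. With edgeR 0 passed an adjusted p of 0.05 and 11 had an unadjusted p under 0.05, 8 higher and 3 lower, while DESeq2 called 1. Over all genes these shares were 0.069% and 12.8% with edgeR and 2.33% with DESeq2. In all, 14 had a fold change above 0 and 5 below, where 51.2% of all tested genes were above 0. The median log2 fold change was 0.225 beside 0.0075 for all tested genes. With the smallest p of the list, and so named after its values were seen, PHLDA1, a feedback regulator of receptor kinases, was at 3.53, 3.96 and 4.2 FPKM in the controls and 5.44, 5.27 and 6.58 under the PRMT5 hairpin (log2 fold change 0.51, SE 0.103, adjusted p = 0.185), and it is the gene that DESeq2 called. CCND1, which encodes cyclin D1 and was named after its values were seen, was at 29.35, 28.48 and 28.01 FPKM against 26.61, 24.73 and 24.48 without overlap (log2 fold change -0.24, adjusted p = 0.239). IER3, with the highest mean of the list over the 6 libraries, was at 25.7 against 30.8 FPKM (log2 fold change 0.20, adjusted p = 0.51).

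**Figure D4:**
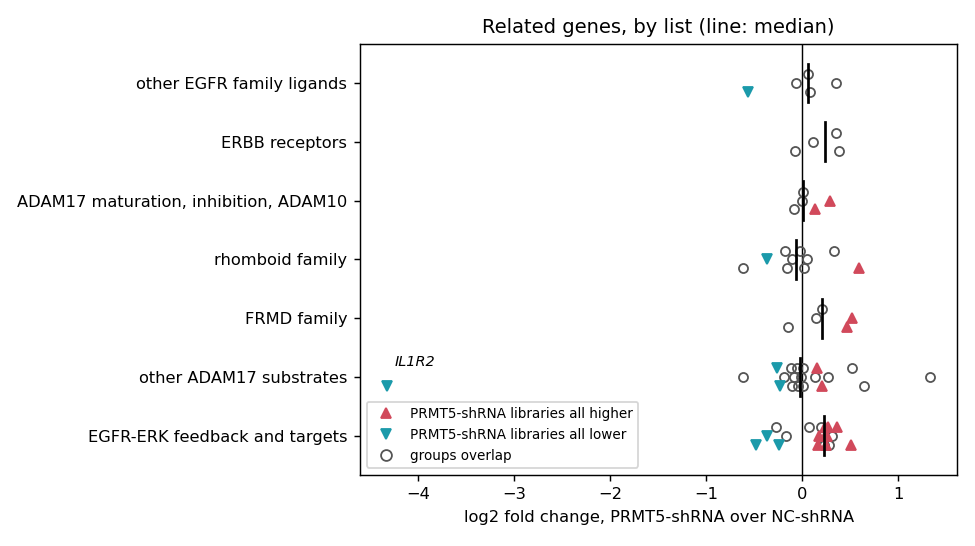
Log2 fold changes, PRMT5-shRNA over NC-shRNA (horizontal axis), of the 68 tested genes in the 7 lists, with triangles for genes whose groups do not overlap and a line at each median. IL1R2 stands alone at -4.33, and 9 of the 19 EGFR and ERK feedback genes are upward triangles.

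None of the other tested genes within 250 kb of the FRMD8 start passed the test. They numbered 22, with log2 fold changes from -0.86 to 1.22 and a smallest edgeR adjusted p of 0.38. Both edgeR and DESeq2 called 0 of them, beside 0.069% and 2.33% of all genes. An edgeR unadjusted p under 0.05 was met by 1, beside 12.8% of all tested genes. Without overlap 2 were lower and 3 higher, beside 10.7% and 11% of all tested genes. SLC25A45, a mitochondrial carrier gene on the minus strand, starts 2.9 kb before FRMD8 and runs away from it. Its log2 fold change was 0.01 (SE 0.18, adjusted p = 0.986). TIGD3 and DPF2, further up, were at -0.07 (adjusted p = 0.961) and -0.06 (adjusted p = 0.812). The nuclear long noncoding RNA NEAT1 starts 9.25 kb after FRMD8 on the same strand and was at 0.20 (SE 0.14, adjusted p = 0.602). AP000769.1 was at -0.04 (adjusted p = 0.909). MALAT1, another nuclear noncoding RNA 84.2 kb away, was at 0.38 (SE 0.364, adjusted p = 0.702), with 9857, 19190 and 8360 counts in the controls and 9845, 13143 and 20745 under the PRMT5 hairpin, where NC-shRNA replicate 2 and PRMT5-shRNA replicate 3 were highest. The pseudogene FRMD8P1 had 8 counts over the 6 libraries, so it took few reads beside FRMD8.

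**Figure D5:**
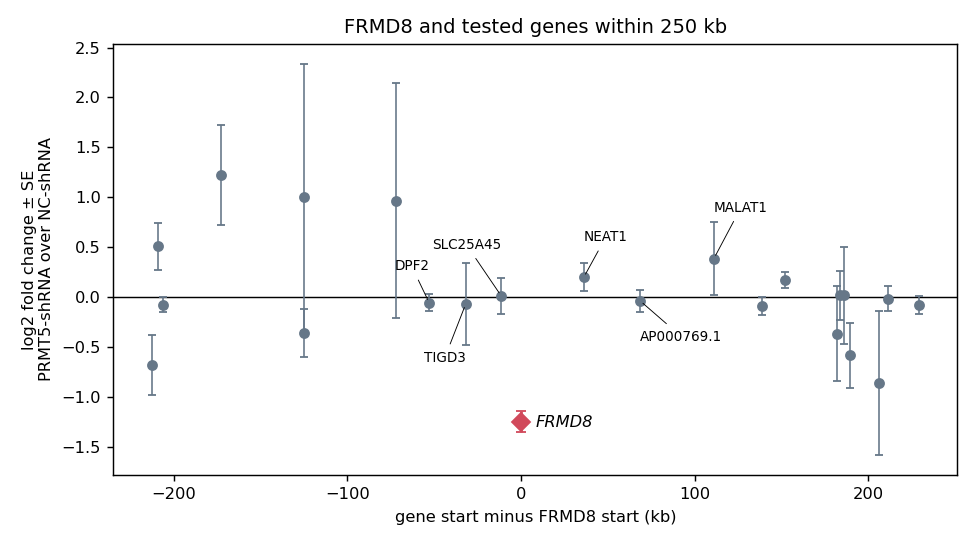
Log2 fold change ± SE (vertical axis) against the distance of each gene start from the FRMD8 start in kb (horizontal axis) for FRMD8 (diamond) and the 22 other tested genes within 250 kb. FRMD8 lies at -1.25, and the 3 nearest tested genes on each side lie between -0.07 and 0.38.

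The 5 genes whose log2 CPM followed FRMD8 most closely over the 6 libraries, among 10486 genes with a mean log2 CPM of at least 3, were STEAP1 (Pearson r 0.995), ATP6AP1 (0.995), AP1B1 (0.993), ATP2C1 (0.992) and CCNYL1 (0.990). Each was lower in all 3 PRMT5-shRNA libraries than in all 3 controls, and the points share the group difference and the library scaling. Their log2 fold changes were smaller than that of FRMD8. STEAP1 was at -0.52 (adjusted p = 0.16), ATP6AP1 at -0.35 (adjusted p = 0.137), AP1B1 at -0.17 (adjusted p = 0.287), ATP2C1 at -0.23 (adjusted p = 0.213) and CCNYL1 at -0.18 (adjusted p = 0.296).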

How the data were processed

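RNA-seq was measured in 6 libraries of NCI-H460 cells, 3 per hairpin. Per the labels and the submitters' processing notes, the authors trimmed reads with cutadapt 1.9, aligned them with HISAT2 2.0.4 and quantified genes with StringTie 1.3.4d. The notes name GRCh38, and the methods of the study print a mouse build name. The authors deposited estimated counts per gene, derived from coverage and already whole numbers, without normalization, and FPKM values, normalized by the authors for transcript length and library size. Counts of exactly 4 were more frequent (1214 to 1319 genes per library) than counts of 3 (462 to 546) or 5 (283 to 308), so totals are not numbers of fragments.

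Counts were scaled by TMM and filtered with filterByExpr in edgeR 4.0.16 (R 4.3.3), and tested with the edgeR quasi-likelihood test and Benjamini-Hochberg adjustment over all 20295 genes. SEs were derived from the F statistic. The fits were tested on simulated data. Levels between genes were compared in FPKM only. The alternatives (DESeq2 1.42.0, limma 3.58.1 on log2(FPKM + 1) and others) are given at the end. Positions came from GENCODE release 29 and promoters from RefSeq. The members, gene lists and tests were chosen with earlier results of these data known. The rule for named genes took the members, PRMT5 and list genes at an adjusted p under 0.05. It added up to 4 more per list past the looser rule (fold change over 1.5, unadjusted p under 0.05). It also took the most abundant gene of each list, the 3 nearest tested genes on each side of FRMD8 and the 5 genes most correlated with it. PHLDA1, CCND1, MYC and the cell type markers were among the genes named outside this rule. The study calls the 3 libraries of each group biological replicates. The labels do not say whether they came from separate infections or cultures, so p-values measure only the spread between these libraries. The smallest chi-square per degree of freedom between 2 libraries was 42.2, so no column of counts was a copy of another. The counts are estimates from coverage, so this value cannot show whether 2 libraries came from the same RNA.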

Additional observations from a re-analysis of the deposited data

How the results depend on the processing

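The fitted log2 fold changes of RHBDF1, RHBDF2, ADAM17, AREG, BTC and EREG kept their direction and their side of the threshold under all alternatives that gave a value, which were 17 for each gene except BTC (15) and EREG (14). Their ranges were 0.03 to 0.25 for RHBDF1, 0.05 to 0.25 for RHBDF2, 0.01 to 0.12 for ADAM17, 0.29 to 0.46 for AREG (adjusted p 0.228 to 0.581), 0.22 to 1.26 for BTC and 0.05 to 2.21 for EREG. FRMD8 stayed between -1.30 and -0.96, with adjusted p from 5.77e-18 to 0.177. It missed the threshold with limma on log2(FPKM + 1) without a filter (-0.96, adjusted p = 0.10) and when 1 library was left out, where the log2 fold change was -1.30 to -1.16, so the members called numbered 0 in the first case and 0 to 1 in the second. Leaving out a library turned the direction of TGFA (-0.17 to 0.17; it was below 0 without NC-shRNA replicate 2, at -0.04 without PRMT5-shRNA replicate 1 and at -0.02 without PRMT5-shRNA replicate 3) and of HBEGF (-0.31 to 0.0306). The cause was not tested. Over all genes, 10 were called higher and 4 lower. DESeq2 called 237 and 164. The unfiltered limma fit on log2(FPKM + 1) called 1 higher, and leaving out a library gave 4 to 16 higher and 3 to 10 lower. Of the list genes, 1 passed the adjusted p, and 2 did with DESeq2. At the unadjusted rule 2 list genes passed, 1 with library totals only, with limma-voom and with each of the 3 limma fits on FPKM, and 1 to 3 when a library was left out.

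The replicate numbers did not pair the samples: deviations from the group means correlated by 0.00122, -0.0388 and 0.064 for replicates 1, 2 and 3 over 10487 genes. With the replicate block, FRMD8 was at -1.25 (adjusted p = 0.177), 0 members and 0 genes higher or lower were called in edgeR (2382 at an unadjusted p under 0.05), 0 list genes passed the adjusted p, and 1 met the unadjusted rule. EREG, BTC and TGFA had at most 34, 77 and 134 counts in any library, and the width of their intervals was not tested against depth.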

Other observations

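Of the list genes, MYC stood out by its spread and was named after its values were seen. Its counts were 893, 16102 and 961 in the controls and 813, 756 and 17121 under the PRMT5 hairpin, so that NC-shRNA replicate 2 and PRMT5-shRNA replicate 3 were far above the other 4 in both groups. Its log2 fold change of 0.31 had an SE of 1.53 (edgeR adjusted p = 0.955). The 9 members showed no split of this kind.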
